A study of Saccharomyces cerevisiae with 8 samples.

Results

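The genes nearest to the ends of the chromosomes of Saccharomyces cerevisiae were examined, with the outermost 4 genes taken on each of the 32 chromosome arms. Yeast systematic names give the chromosome (A to P), the arm (L or R) and a number that grows from the centromere to the telomere, so the 4 highest numbers on an arm, leaving out names with a suffix, are its outermost genes. This gave 128 terminal genes out of 6600 features in the count tables. Position 1 is the outermost gene of an arm and position 4 the innermost of the 4. Of the 128 genes, 102 were found in the RefSeq annotation of the R64 genome, and the other 26 are referred to by the identifiers of the tables only.

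RNA was sequenced from yeast of 5 strains built on JDY86, a MATa strain of a commercial histone mutant library, grown in YPD at 30 °C for 16 h. H4K16Q (glutamine in place of lysine 16 of histone H4), H4H18A (alanine in place of histidine 18 of H4) and their control WT H4 were sequenced in 2 libraries each. H3E50A (alanine in place of glutamate 50 of histone H3) and its control WT H3 were sequenced in 1 library each. Per the study's methods, all of the strains carry his3Δ200, leu2Δ0, trp1Δ63, ura3Δ0, met15Δ0 and a marker printed as K2Δ0. They also carry a HIS3 gene driven by the MFA1 promoter at can1, NatMX4 in place of hht1-hhf1, and a URA3-marked synthetic histone cassette in place of hht2-hhf2. In their strain field the labels of both H4 mutants give H3 as the mutated histone, whereas the design text gives H4K16Q and H4H18A, which was followed here. The methods describe the replicates as independently prepared.

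Yeast telomeres are tracts of short TG-rich repeats to which the protein Rap1 binds. Rap1 recruits the Sir2, Sir3 and Sir4 proteins, and Sir2 removes the acetyl group from lysine 16 of histone H4, which lets Sir3 bind nucleosomes and spread inwards, so that genes placed next to a telomere are silenced. The natural ends carry X elements and, on many arms, Y' elements that encode a helicase, and behind these lie gene families that exist in many similar copies, such as the seripauperins (PAU), the COS membrane proteins and genes for the use of rarer sugars. The outermost 60 bases of the left end of chromosome I are shown as 1 example of a natural end, which the terminal genes of that arm face, with matches to the Rap1 motif in capitals (R64 assembly in RefSeq, plus strand, chromosome I, positions 1 to 60):
left end of chromosome I: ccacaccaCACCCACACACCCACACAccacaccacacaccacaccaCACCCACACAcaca

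Many terminal genes are near copies of each other, which bears on every count below. The first 120 coding bases of 3 PAU genes at position 2 or 3 of their arms are shown to make this visible, with bases that differ from PAU1 in capitals. PAU1 (chr10:9019-9138, minus strand) and PAU14 (chr9:9036-9155, minus strand) had 0 differences over this stretch, and PAU11 (chr7:6533-6652, minus strand) had 4.
PAU1: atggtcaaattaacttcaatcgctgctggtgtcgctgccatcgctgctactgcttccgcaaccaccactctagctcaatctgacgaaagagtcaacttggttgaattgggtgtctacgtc
PAU14: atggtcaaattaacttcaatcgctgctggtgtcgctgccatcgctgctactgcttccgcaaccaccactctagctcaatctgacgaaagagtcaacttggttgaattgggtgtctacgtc
PAU11: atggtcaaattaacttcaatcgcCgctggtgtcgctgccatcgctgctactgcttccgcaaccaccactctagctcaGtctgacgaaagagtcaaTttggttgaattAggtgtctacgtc
PAU14 had 0 counts in all of the 8 libraries and PAU1 had 1 count in all, whereas PAU11, with 54.5% of its 100-base windows found nowhere else in the genome, had 11 counts in WT H4 replicate 1, 8 in H4K16Q replicate 1, 4 in WT H3, 2 in H4H18A replicate 1 and 0 in the others. A gene without unique windows can hold few counts because its RNA is scarce or because its reads fit several places, and the tables cannot tell these apart.

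Libraries held between 621770 and 10529401 counts, and levels are given as CPM (counts scaled to a common depth by TMM). A gene with 0 counts in a library may have a level up to that of 3 counts, which was 0.217 CPM in the deepest library and 7.05 CPM in the shallowest, a limit for counting error only. Of the values from 1 to 100 in a library, between 56.0% and 82.9% were even numbers, and whether reads or read pairs were counted is not given in the sources used here. The share of ribosomal RNA features ran from 0.180% to 33.9%. The libraries of a strain stood apart. The median absolute difference between replicates over the 102 terminal genes with at least 10 counts was 1.59 on the log2 scale in WT H4, 0.96 in H4K16Q and 0.99 in H4H18A, against 1.04, 0.61 and 0.78 over all 6174 genes with at least 10 counts. The summed level of 13 genes known to rise when glucose runs out was 27450 CPM in WT H4 replicate 1 but 637 CPM in WT H4 replicate 2, 34320 and 6422 CPM in H4K16Q, 32980 and 976 CPM in H4H18A, 1423 CPM in WT H3 and 92970 CPM in H3E50A. The libraries of a strain thus differed widely in this list, and its part in the results below was not tested. LEU2, TRP1 and MET15, deleted in the parent strain, had at most 1 count in any library. LYS2, taken as the marker printed as K2Δ0, had 3 counts in WT H4 replicate 1 and 0 in the other libraries. Of the histone genes that the genotype gives as replaced, HHF2 had 4 counts over the 8 libraries, but HHT1 had 7390 (36.6 to 687 CPM), HHT2 3229 and HHF1 2658. So the counts of these 3 genes go against the stated genotype as far as it can be read from gene names, and where their reads come from was not tested.

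Few of the terminal genes gave many reads. In all strains 8 of the 128 genes (6.25%) had 0 counts, which were YBL112C, YEL076C, YEL075C, YIL177C, PAU14, the isomaltase gene IMA4, YLR465C and YPR203W. In total 26 genes (20.3%) had under 10 counts over the 8 libraries and were left out of the fold changes, and 102 remained. Of the 5883 other genes named by arm and number, 81 (1.38%) had 0 counts and 188 (3.20%) had under 10. Among the 128 genes next inside, at positions 5 to 8, 3 had 0 counts and 9 (7.03%) had under 10. All 32 arms kept at least 1 terminal gene with 10 or more counts, and 14 arms kept all 4.

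Among the annotated genes, those with few counts were those with copies. None of the 33 annotated terminal genes without a copy of at least 90% protein identity had under 10 counts, but 20 of the 69 with such a copy (29.0%) did. In 42 terminal genes under 10% of the 100-base windows were unique, and 18 of these (42.9%) had under 10 counts, against 2 of the 31 genes with 10% to 90% unique windows and 0 of the 29 genes with 90% or more. By family, under 10 counts were seen in 6 of the 16 genes for Y' helicases, in 6 of the 14 PAU genes, which code for small cell wall proteins, in both of the isomaltase genes (IMA3 and IMA4) and in 0 of the 9 COS genes. Few unique windows did not always go with few counts, since the 3 ERR genes (median 0% unique windows), both VTH genes (2.20%) and the 3 MAL and MPH genes (4.79%) all had at least 10.

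**Figure D1:**
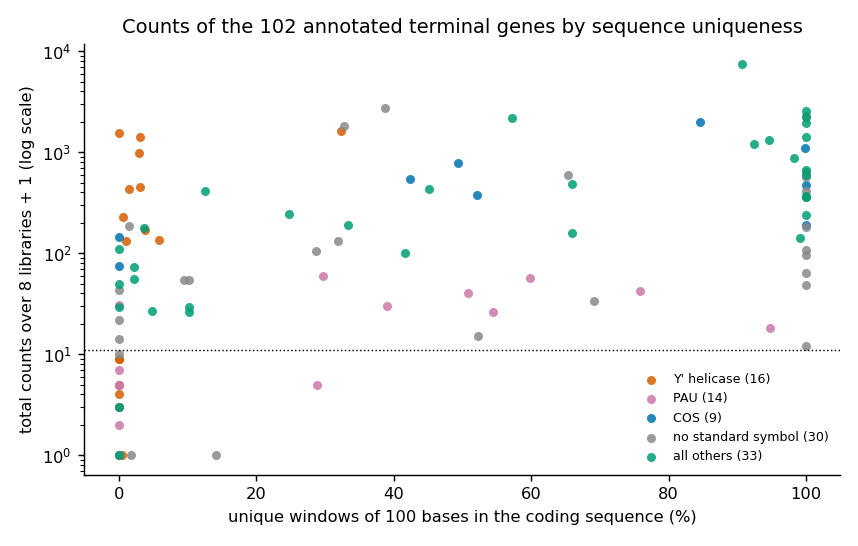
Total counts over 8 libraries plus 1 (log scale) of the 102 annotated terminal genes against the percentage of 100-base windows of the coding sequence that occur once in the genome, coloured by family with the number of genes in brackets. The dotted line marks 10 counts, and all 20 genes under it have less than 50% unique windows.

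The number of terminal genes with 0 counts was 46 and 47 in WT H4, 27 and 25 in H4K16Q, 59 and 57 in H4H18A, 37 in WT H3 and 55 in H3E50A. Since the H4K16Q libraries were the deepest and the H4H18A libraries the shallowest, the counts were also thinned by calculation to the depth of the shallowest library. An expected count of at least 1 was then reached by 72 and 75 genes in WT H4, 68 and 71 in H4K16Q, 69 and 68 in H4H18A, 76 in WT H3 and 55 in H3E50A. The H4 libraries lay close together on this measure, and H3E50A lay below all the others. The measure is a cut-off on expected counts, met by 1 read in the shallowest library, and depth includes the ribosomal RNA features. Among the other genes named by arm and number the share that reached 1 lay between 89.3% (H4H18A replicate 1) and 93.6% (WT H4 replicate 1) and was 91.0% in H3E50A.

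Levels were lowest near the chromosome end. At equal length, the median level of the annotated genes at position 1 was between 0.963 CPM per kb of coding sequence (H4K16Q replicate 1) and 5.14 CPM per kb (WT H3), and at position 4 it was between 3.22 and 6.23 CPM per kb. At position 8 it was between 16.6 and 34.1 CPM per kb, and over the 5381 annotated genes further inside it was between 28.4 and 33.4 CPM per kb. The median was 0 in both H4H18A libraries at position 2 and in H4H18A replicate 1 at position 3. Both H4K16Q libraries lay above both WT H4 libraries at positions 2 and 4 but not at 1 and 3, and H4H18A did so at none of the 4. Sequence uniqueness changed along the same axis, with a median of 2.93% unique windows at position 1 and 54.7% at position 4, so over the terminal positions the 2 cannot be told apart. From position 6 on the median was 100%, and levels still differed there, with 4.24 to 12.8 CPM per kb at position 6 and 8.41 to 17.7 CPM per kb at position 7.

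**Figure D2:**
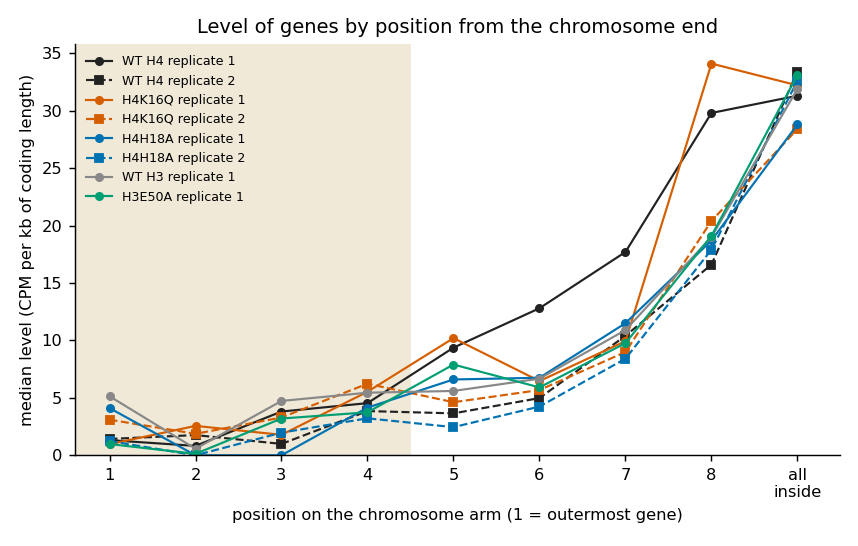
Median level in CPM per kb of coding length of the annotated genes at positions 1 (outermost) to 8 of the chromosome arms, and of all annotated genes further inside, with 1 line per library. The shaded positions 1 to 4 are the terminal genes, whose medians stay at or below 6.23 CPM per kb in all of the libraries, against 28.4 to 33.4 CPM per kb further inside.

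The terminal signal was unequal between arms and genes. Together the 128 genes made up 0.116% to 0.191% of a library's counts. The right arm of chromosome VIII led, with a mean of 240.5 summed CPM over the 8 libraries, followed by the left arm of VIII with 130.2 CPM and the left arm of XIII with 123.1 CPM. This order rests on a few libraries. The right arm of VIII led in H4K16Q replicate 2, both H4H18A libraries and WT H3, the left arm of XIII in WT H4 replicate 2, H4K16Q replicate 1 and H3E50A, and the left arm of II in WT H4 replicate 1. The left arm of IX was last with 1.74 CPM, with 1 of its 4 genes at 10 counts or more. IMD2, which makes IMP dehydrogenase, the enzyme that starts the synthesis of guanine nucleotides, had the highest mean of any terminal gene at 202.4 CPM, and its share of the terminal counts ran from 0.706% in WT H4 replicate 1 to 25.7% in H4K16Q replicate 2. It was followed by YBL113C, an uncharacterized gene inside the telomere annotation of the left end of II, with 83.5 CPM, by ERO1, the thiol oxidase of the endoplasmic reticulum, with 65.6 CPM, and by COS6 with 64.7 CPM. Per length IMD2 stood at a mean of 129 CPM per kb, COS6 at 56.4 CPM per kb and ERO1 at 38.8 CPM per kb.

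IMD2 lies at position 4 of the right arm of VIII (chr8:554396-555967, plus strand). Its promoter, from 250 bases before to 50 bases after the first base of the start codon, is shown because IMD2 was the most abundant terminal gene and varied widely between the libraries, with the start codon in capitals (chr8:554146-554445, plus strand). It held none of the 5 motifs searched.
IMD2: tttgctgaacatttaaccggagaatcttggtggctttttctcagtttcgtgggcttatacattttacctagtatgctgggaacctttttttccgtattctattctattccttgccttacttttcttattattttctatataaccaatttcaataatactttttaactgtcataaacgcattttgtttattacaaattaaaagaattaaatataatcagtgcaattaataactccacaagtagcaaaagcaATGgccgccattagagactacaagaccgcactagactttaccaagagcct

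IMD2 stood at 12.1 and 119 CPM in WT H4, 181 and 605 CPM in H4K16Q, 282 and 194 CPM in H4H18A, 194 CPM in WT H3 and 32.3 CPM in H3E50A. All 4 libraries of the H4 mutants were above both WT H4 libraries, WT H3 lay among the mutants, and the lowest levels were those of WT H4 replicate 1 and H3E50A. The fitted difference from WT H4 was 2.60 ± 1.10 (log2, SE) in H4K16Q and 1.87 ± 1.07 in H4H18A, with adjusted p-values of 0.977 and 1.0 by edgeR's quasi-likelihood test, n = 2 against 2. Without WT H4 replicate 2 the value for H4K16Q was 5.19, from a fit in which WT H4 has 1 library. The lowest value with 1 library left out was 1.48. IMD3, a copy with 92.5% protein identity, lies elsewhere, and 90.7% of the windows of IMD2 are unique. Copies were searched among RefSeq proteins only, so the terminal identifiers that RefSeq does not list were not compared with IMD2.

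The first comparison asked whether terminal genes differ in level between H4K16Q, where glutamine resembles acetylated lysine, and WT H4. No terminal gene passed an adjusted p of 0.05 by edgeR, and neither did any of the 6174 genes tested (0%), which at this spread between replicates does not show that levels were alike. Without adjustment 250 genes in all (4.05%) had a p under 0.05. Of the 102 terminal genes 6 were among them as higher, where all genes gave 1.17%, and 4 as lower, where all genes gave 2.88%. DESeq2's Wald test called 14 of 6174 genes (0.227%), with 1 terminal gene among them, YFL067W. Of the 102 terminal genes 61 (59.8%) had a fitted value above 0 and 41 (40.2%) below, against 44.5% and 55.5% of all genes tested. The median was 0.40 for the terminal genes, −0.11 for all genes and −0.03 for the 119 tested genes at positions 5 to 8. Both H4K16Q libraries lay above both WT H4 libraries in 26 terminal genes (25.5%, against 13.4% of all genes), and both lay below in 9 (8.82%, against 17.8%). Genes were kept by raw counts summed over all libraries, and the H4K16Q libraries were the deepest, with 10529401 and 8645533 counts. A gene with few counts therefore passes more easily if its level in H4K16Q is high. Terminal genes had a median of 73 counts in total, against 1405 in the other genes named by arm and number. This selection can raise the share above 0, the median and the count of 26, and how far it does so was not tested. In 11 of the 102 genes WT H4 had 0 counts in both libraries, and with genes of this kind set at the limit of 3 counts over the group the median was 0.27. Without H4K16Q replicate 2 the median was −0.02 and without WT H4 replicate 1 it was 1.04, so it turned its sign with the first of these libraries.

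**Figure D3:**
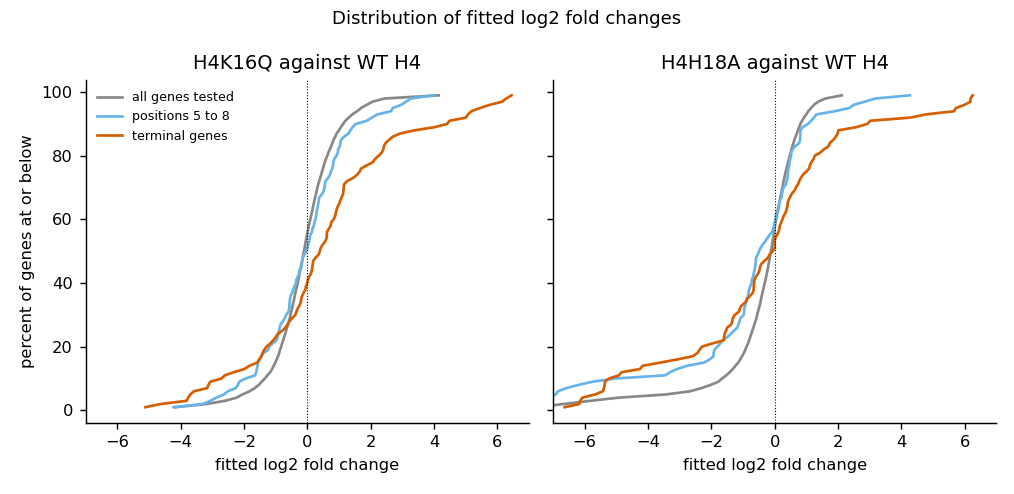
Cumulative percentage of genes (y) at or below each fitted log2 fold change (x) for H4K16Q against WT H4 and H4H18A against WT H4, for the 102 terminal genes, the 119 tested genes at positions 5 to 8 and all 6174 genes tested. The curve of the terminal genes is wider than the others on both panels and lies to the right of them over most of its length in H4K16Q, where its median is 0.40.

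YFL067W was the terminal gene with the smallest unadjusted p in both mutants and was picked once its values were known. It is an uncharacterized gene at position 2 of the left arm of VI (chr6:836-1363, plus strand), inside the annotated telomere region, with 65.3% unique windows. Its promoter is shown because of this smallest unadjusted p, with the start codon and a match to the Abf1 motif in capitals (chr6:586-885, plus strand). Abf1 is a general regulatory factor that also binds X elements.
YFL067W: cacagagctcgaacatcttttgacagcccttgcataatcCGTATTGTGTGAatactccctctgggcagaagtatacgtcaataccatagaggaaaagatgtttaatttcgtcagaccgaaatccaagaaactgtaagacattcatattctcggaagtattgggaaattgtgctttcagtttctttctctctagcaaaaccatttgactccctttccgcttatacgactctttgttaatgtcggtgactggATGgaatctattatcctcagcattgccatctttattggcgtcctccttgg
YFL067W had 0 and 2 counts in WT H4, 101 and 359 in H4K16Q, 14 and 19 in H4H18A, 42 in WT H3 and 56 in H3E50A. Scaled by depth this was 0 and 1.30 CPM in WT H4, 7.32 and 53.5 CPM in H4K16Q, 32.9 and 21.8 CPM in H4H18A, 27.3 CPM in WT H3 and 12.8 CPM in H3E50A. The 2 WT H4 libraries were thus the lowest of the 8, and WT H3, the other control, was as high as the mutants. Over the summed counts the ratio to WT H4 was 69.3 in H4K16Q (95% exact counting interval 19.1 to 574) and 78.5 in H4H18A (20.1 to 676). These intervals cover counting error only and leave out the spread between libraries. The fitted values were 6.17 ± 1.47 (unadjusted p = 0.00145, adjusted p = 0.977) and 5.997 ± 1.50 (unadjusted p = 0.00202, adjusted p = 1.0) by edgeR. DESeq2 gave 6.11 with an adjusted p of 0.0369 in H4K16Q. With 1 library left out the edgeR value lay between 3.99 and 10.4 in H4K16Q and between 4.34 and 10.1 in H4H18A. The highest values came without WT H4 replicate 2, which leaves 1 WT H4 library with 0 counts.

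Other terminal genes with H4K16Q above WT H4 came from several families. AAD3, a putative aryl-alcohol dehydrogenase gene at position 2 of the right arm of III, stood at 4.74 and 11.0 CPM in WT H4 and at 61.1 and 24.0 CPM in H4K16Q, a difference of 2.48 ± 0.77 (adjusted p = 0.977 by edgeR). In H4H18A it stood at 14.1 and 18.3 CPM, in WT H3 at 19.5 CPM and in H3E50A at 22.2 CPM, so the WT H4 libraries were again the lowest of the 8. COS8, one of the COS membrane proteins, which take part in the sorting of surface proteins to the vacuole, stood at 19.4 and 16.9 CPM in WT H4, 30.3 and 50.2 CPM in H4K16Q, and 32.9 and 29.8 CPM in H4H18A. Its differences were 1.14 ± 0.61 and 0.78 ± 0.64, and its 4 mutant libraries lay above both WT H4 libraries. WT H3, at 41.7 CPM, lay above 3 of these 4, and H3E50A stood at 25.5 CPM. ERR3, one of 3 enolase-related genes here, stood at 31.4 and 3.25 CPM in WT H4 and 118 and 41.3 CPM in H4K16Q (2.15 ± 1.11), but at 77.6 and 6.87 CPM in H4H18A, where the groups overlapped. BDS1, a sulfatase gene, stood at 28.4 and 15.6 CPM in WT H4 and 50.02 and 35.0 CPM in H4K16Q (0.94 ± 0.68).

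YER188W, an uncharacterized gene at position 3 of the right arm of V with 100% unique windows, was likewise picked with its values known. It had 0 and 9.09 CPM in WT H4, 18.1 and 42.9 CPM in H4K16Q, 40.0 and 21.8 CPM in H4H18A, 18.2 CPM in WT H3 and 4.36 CPM in H3E50A. As in YFL067W, the H4 mutant libraries lay above both WT H4 libraries without overlap and WT H3 lay beside the mutants, but here H3E50A lay between the 2 WT H4 libraries. The fitted values were 2.96 ± 1.31 in H4K16Q and 2.95 ± 1.35 in H4H18A, with adjusted p-values of 0.977 and 1.0 by edgeR. With 1 library left out the fitted value lay between 1.74 and 10.4 in H4K16Q and between 1.73 and 10.2 in H4H18A. The highest values again came without WT H4 replicate 2, which leaves 1 WT H4 library with 0 counts.

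**Figure D4:**
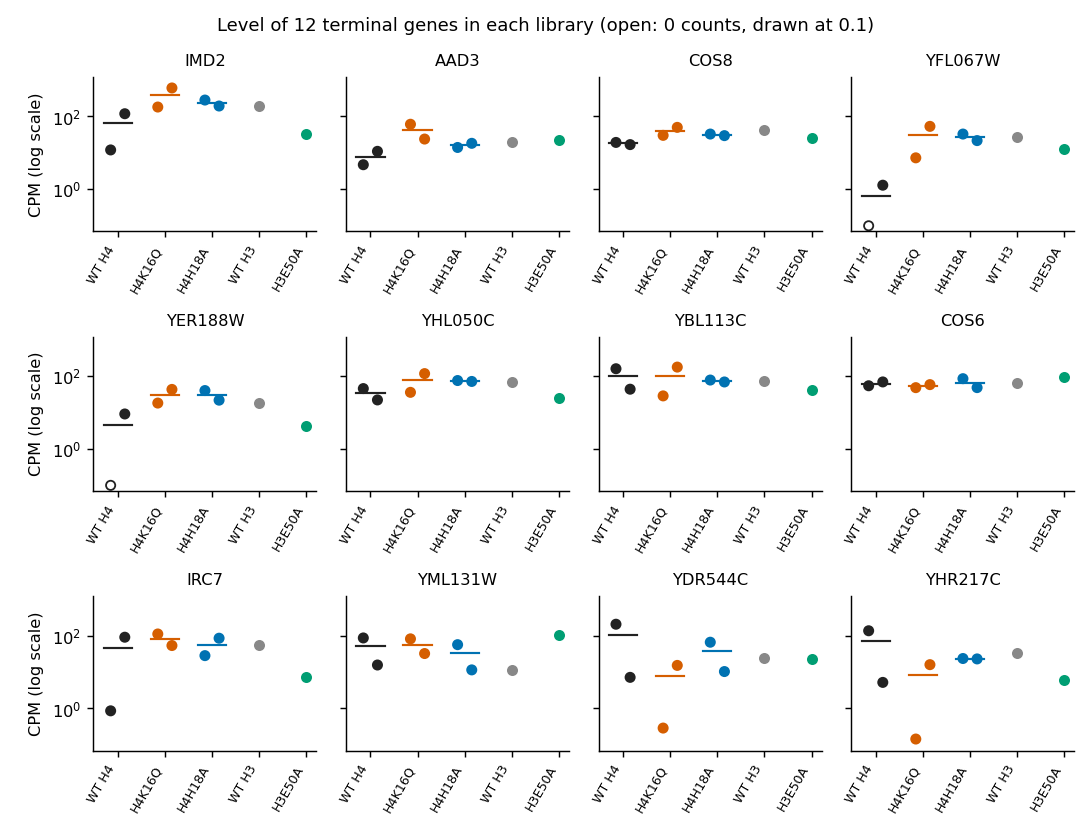
Level in CPM (log scale) of 12 terminal genes in each of the 8 libraries, by strain, with a short line at the mean of the 2 libraries of the H4 strains and open circles at 0.1 for libraries with 0 counts. In the top row and in YER188W both WT H4 libraries lie below all 4 libraries of the H4 mutants, the strains overlap in COS6, and in IRC7, YDR544C and YHR217C the 2 WT H4 libraries lie far apart.

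Other abundant terminal genes did not separate the strains. COS6 had overlapping strains, with 54.1 and 68.8 CPM in WT H4, 48.0 and 58.1 CPM in H4K16Q, 84.6 and 48.1 CPM in H4H18A, 63.8 CPM in WT H3 and 91.7 CPM in H3E50A, and fitted values of −0.21 ± 0.59 and 0.10 ± 0.60. ERO1 stood at 28.4 and 101 CPM in WT H4, 108 and 37.5 CPM in H4K16Q, 37.6 and 59.6 CPM in H4H18A, 75.5 CPM in WT H3 and 76.6 CPM in H3E50A. The H4 groups overlapped in both genes. IRC7, a cysteine-S-conjugate beta-lyase gene, was at 0.86 CPM in WT H4 replicate 1 and at 90.3 CPM in WT H4 replicate 2, with H4K16Q at 111 and 53.3 CPM and H4H18A at 28.2 and 84.7 CPM. Its fitted value in H4K16Q was 0.87 ± 1.27. With WT H4 replicate 2 left out it was 6.67, and leaving out WT H4 replicate 1 instead gave −0.14.

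Counts on the Y' helicase genes were spread unevenly, with 10 of the 16 at 10 counts or more. YEL077C, at position 1 of the left arm of V with 32.3% unique windows, had the most, 1626 over the 8 libraries. It stood at 31.0 and 41.6 CPM in WT H4, 25.9 and 116 CPM in H4K16Q, 54.1 and 42.4 CPM in H4H18A, 62.5 CPM in WT H3 and 28.7 CPM in H3E50A. Both H4H18A libraries thus lay above both WT H4 libraries, by 0.41 ± 0.75 in the fit, while H4K16Q overlapped them (0.97 ± 0.73, and −0.48 without H4K16Q replicate 2). The tandem copies YRF1-4 and YRF1-5 of the right arm of XII had 337 and 334 counts in WT H4 replicate 1 and 733 and 838 in H4K16Q replicate 2, while YRF1-1, YRF1-3, YRF1-6, YRF1-7 and YRF1-8 had between 2 and 8 counts in all libraries together. YRF1-5 and YRF1-1 are 100% identical in protein and neither has a unique window, so counts on single copies are uncertain. Summed over the 16 genes the level was 235 and 117 CPM in WT H4, 82.9 and 534 CPM in H4K16Q, 270 and 158 CPM in H4H18A, 285 CPM in WT H3 and 107 CPM in H3E50A. The 2 H4K16Q libraries were the lowest and the highest of the 8, which leaves no separation of the strains. YHL050C, an uncharacterized gene at position 1 of the left arm of VIII, stood at 45.2 and 22.1 CPM in WT H4, 35.7 and 117 CPM in H4K16Q and 75.2 and 71.0 CPM in H4H18A, with fitted values of 1.16 ± 0.70 and 1.11 ± 0.72. The value for H4K16Q was 0.07 without H4K16Q replicate 2 and 1.97 without H4K16Q replicate 1.

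The terminal genes inside annotated telomere regions were also described apart from those outside. Of the 34 inside, 16 are Y' helicase genes and 18 have no standard symbol, and 22 were tested. In H4K16Q 19 of the 22 were above 0 and 3 below, with a median of 1.15 (0.93 with genes at 0 in a strain set at their limit), against 35 above and 25 below among the 60 annotated genes outside, with a median of 0.17. Of all genes tested 44.5% were above 0. Both H4K16Q libraries lay above both WT H4 libraries in 5 of the 22 and below in 0, against 13.4% and 17.8% of all genes. The 22 also carry the selection through the deep H4K16Q libraries described above. None of the 22 passed edgeR's test, and DESeq2 called 1, YFL067W. The highest of the 8 libraries was H4K16Q replicate 2 for 11 of the 22 and H4K16Q replicate 1 for 0, and their summed level was 453 and 189 CPM in WT H4 but 164 and 914 CPM in H4K16Q, so the sums overlap. In H4H18A 16 of the 22 were above 0, against 42.5% of all genes tested, with a median of 0.89 (0.43 with the limits), and the sums were 487 and 341 CPM. Both H4H18A libraries lay above both WT H4 libraries in 9 of the 22 and below in 1, against 9.62% and 16.3% of all genes. In WT H3 the sum was 481 CPM and in H3E50A 195 CPM. In the ratio of H3E50A to WT H3 5 of the 22 were above 0 and 16 below, with a median of −1.09. Of all genes tested 49.2% were below 0 in this ratio, with a median of 0. Many of the 22 share sequence with other copies and are not independent.

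The terminal identifiers that RefSeq does not list form another group. Of the 20 tested, 13 were below 0 in H4K16Q, against 55.5% of all genes tested. Their median was −1.45, against −0.11 for all genes. Both H4K16Q libraries lay above both WT H4 libraries in 4 of the 20 and below in 5, against 13.4% and 17.8% of all genes. The highest library was WT H4 replicate 1 for 8 of the 20. Their summed level was 543 CPM in WT H4 replicate 1 and 41.6 CPM in WT H4 replicate 2, against 41.0 and 89.4 CPM in H4K16Q, 167 and 84.7 CPM in H4H18A, 128 CPM in WT H3 and 38.8 CPM in H3E50A. YDR544C, at position 2 of the right arm of IV, shows this with 205 CPM in WT H4 replicate 1, 7.14 CPM in WT H4 replicate 2, and 0.29 and 15.2 CPM in H4K16Q. Its fitted value was −3.81 ± 1.63, and without WT H4 replicate 1 it was 0.09. YHR217C had 136 and 5.20 CPM in WT H4 and 0.15 and 15.9 CPM in H4K16Q (−3.17 ± 1.55, and 0.60 without WT H4 replicate 1). YBL109W had 96.1 and 6.49 CPM in WT H4 and 0.72 and 7.45 CPM in H4K16Q (−3.70 ± 1.25, and −0.70 without WT H4 replicate 1). YAL069W, the outermost gene of the left arm of I, had 13 and 4 counts in WT H4 and 0 and 0 in the much deeper H4K16Q libraries, which is a log2 difference of −4.23 or lower at a limit of 3 counts over both libraries. It was picked because of these values.

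For H4H18A, whose substituted residue lies near lysine 16 in the H4 tail, 0 terminal genes and 0 of 6174 genes (0%) passed edgeR's test. DESeq2 called 0 genes. Without adjustment 138 genes (2.24%) had a p under 0.05. Of the terminal genes 3 were among them as higher (YFL067W, COS12 and YHR219W), where all genes gave 0.146%, and 0 as lower, where all genes gave 2.09%. COS12 and YHR219W rest on few counts. YHR219W had 4 and 0 counts in WT H4 and 8 and 6 in H4H18A, and 1.58% of its windows are unique. Of the 102 terminal genes 47 (46.1%) were above 0 and 51 below, against 42.5% and 56.7% of all genes, with a median of −0.07 against −0.12. Both H4H18A libraries lay above both WT H4 libraries in 16 terminal genes (15.7%, against 9.62% of all genes) and below in 10 (9.80%, against 16.3%). In 20 of the 102 genes H4H18A had 0 counts in both of its shallow libraries, and with the limits in place of fitted values the median was 0. The fitted value of IRC7 was 0.36 with all libraries and lay between −0.64 and 6.04 with 1 library left out. COS12, a COS gene at position 1 of the left arm of VII with 100% unique windows, had 2 and 4 counts in WT H4, 119 and 34 in H4K16Q, 2 and 14 in H4H18A, 14 in WT H3 and 0 in H3E50A. Its 4.70 CPM in H4H18A replicate 1 lie below the 7.05 CPM of 3 counts in that library.

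The PAU genes cannot be compared between H4H18A and the others. Their summed level was 13.1 and 6.49 CPM in WT H4, 8.41 and 13.7 CPM in H4K16Q, 9.40 and 0 CPM in H4H18A, 7.16 CPM in WT H3 and 4.82 CPM in H3E50A, near the 7.05 CPM of 3 counts in H4H18A replicate 1. PAU genes are known to rise when oxygen is scarce. PAU19, with 0 counts in both WT H4 libraries, had 27 and 22 counts in H4K16Q, at least 2.30 higher on the log2 scale. It was picked because of these values, and most of the 56 counts that let it pass the minimum came from H4K16Q. Of the 8 PAU genes tested 4 were above 0 in H4K16Q and 4 below, with a median of −0.14.

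When H4K16Q was compared directly with H4H18A, edgeR called 0 terminal genes and 0 of 6174 genes (0%), with 93 genes (1.51%) at an unadjusted p under 0.05 and 1 terminal gene among them, YAL069W, which was lower in H4K16Q. DESeq2 called 6 genes (0.0972%), with 0 terminal genes. Of the 102 terminal genes 67 (65.7%) were above 0, against 57.4% of all genes, with a median of 0.41 against 0.10. In 20 of the 102 genes H4H18A had 0 counts in both of its shallow libraries, and with the limits in place of fitted values the median was 0. The selection through the deep H4K16Q libraries bears on this comparison too. For IMD2 the difference was 0.73, for YFL067W 0.17, for YER188W 0.01 and for COS8 0.36. Without H4K16Q replicate 2 these were −0.39, −1.88, −0.75 and −0.04. The difference of AAD3 was 1.38, with an unadjusted p of 0.102.

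H3E50A was compared with WT H3 as a ratio of 1 library to 1 library, with no replicate check and no test. At least 2-fold lower in H3E50A were 44 of the 102 terminal genes (43.1%), against 23.4% of all 6174 genes, and at least 2-fold higher were 14 (13.7%), against 22.1%. Of the 78 terminal genes with more than 3 counts in either library 34 (43.6%) were at least 2-fold lower, against 22.9% of all such genes, and 13 (16.7%) were higher, also against 22.9%. Although H3E50A was sequenced deeper, 55 of the 128 genes had 0 counts in it, against 37 in WT H3. Among the 21 terminal genes whose mean reached 20 CPM, 8 were lower and 4 were higher by at least 2-fold. At positions 5 to 8 there were 21 genes lower and 30 higher of 119. Within WT H4 itself 64.7% of the terminal genes were at least 2-fold apart between replicates, so differences of this size also lie between libraries of 1 strain.

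Of the 20 tested identifiers that RefSeq does not list, 13 were at least 2-fold lower in H3E50A. The terminal genes that were lower included IMD2 (32.3 CPM in H3E50A against 194 CPM in WT H3, 5.93-fold), IRC7 (7.34 against 54.7 CPM, 7.06-fold), YRF1-5 (10.1 against 75.5 CPM, 7.19-fold), YRF1-4 (9.40 against 56.6 CPM, 5.78-fold) and YBL109W (1.38 against 20.8 CPM, 11.5-fold). For IMD2 and IRC7 the level in H3E50A lay inside the range of the WT H4 libraries. Higher were YML131W, a gene of unknown product (105 against 11.7 CPM, 8.66-fold), YPS6, an aspartyl protease of the cell surface (73.4 against 16.9 CPM, 4.25-fold), ARN2, a carrier of iron-siderophore complexes (58.5 against 19.5 CPM, 2.95-fold), and BDS1 (59.2 against 28.6 CPM, 2.05-fold). YML131W and ARN2 were also higher in replicate 1 than in replicate 2 of each H4 strain, at 86.2 against 15.6 CPM in WT H4 for YML131W and 62.0 against 23.4 CPM for ARN2, in the same order as the list of genes that rise when glucose runs out. The part of growth stage in these ratios was not tested.

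**Figure D5:**
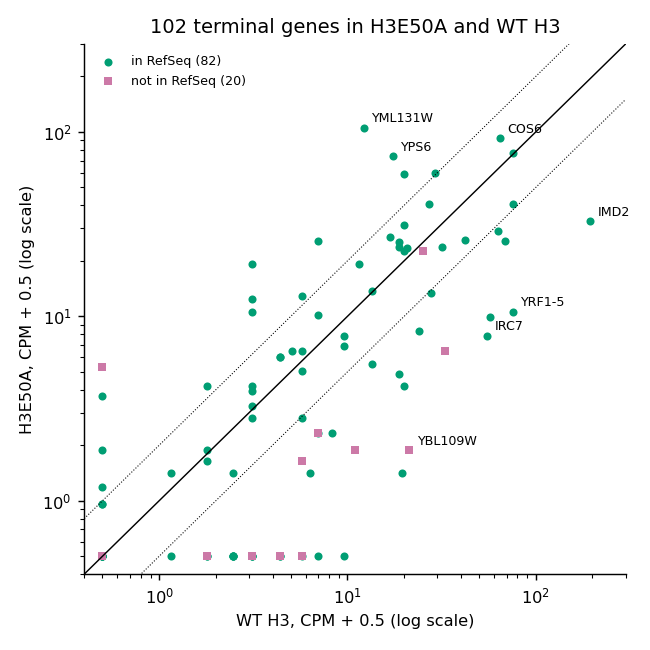
Level of the 102 terminal genes in WT H3 (x) and H3E50A (y), both as CPM plus 0.5 on log scales, with 1 library each, for genes in RefSeq (circles) and not in RefSeq (squares). The solid line marks equal levels and the dotted lines a 2-fold difference, and 44 genes are at least 2-fold lower in H3E50A against 14 at least 2-fold higher by ratios with a prior count.

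The transcripts of genes whose proteins establish or limit silencing at chromosome ends were measured as well. Of 18 such genes 0 passed the test in either H4 mutant, with 6 above and 12 below 0 in each and medians of −0.33 in H4K16Q and −0.54 in H4H18A. Of all genes tested 55.5% were below 0 in H4K16Q and 56.7% in H4H18A, with medians of −0.11 and −0.12. An unadjusted p under 0.05 was found for 1 of the 18 in H4K16Q and 0 in H4H18A, and DESeq2 called 0 in both. SIR3 stood at 46.1 and 46.8 CPM in WT H4, 51.8 and 32.5 CPM in H4K16Q, 42.3 and 27.5 CPM in H4H18A, 35.1 CPM in WT H3 and 48.6 CPM in H3E50A. SIR4 stood at 90.3 and 77.3 CPM in WT H4, 78.1 and 65.4 CPM in H4K16Q, and 47.0 and 50.4 CPM in H4H18A. SIR2 stood at 29.3 and 9.74 CPM in WT H4, 24.6 and 23.7 CPM in H4K16Q, and 4.70 and 25.2 CPM in H4H18A.

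Another place where the Sir proteins act is at the silent mating loci HML and HMR. HMLALPHA1 had 0 counts in all libraries and HMLALPHA2 had 1, but the reference carries the same alpha sequence at the mating-type locus, and HMRA1, with up to 304 counts, shares its sequence with the active locus of a MATa strain, so these genes say nothing of silencing here. Of 7 genes that only a cells express, 7 were below 0 in each H4 mutant, with medians of −3.29 and −3.55. Their summed level was 452 and 1040 CPM in WT H4, 124 and 33.7 CPM in H4K16Q, 84.6 and 43.5 CPM in H4H18A, 953 CPM in WT H3 and 1081 CPM in H3E50A, with no overlap between the H4 mutants and the other strains. None of the 7 passed an adjusted p of 0.05 by edgeR, 7 had an unadjusted p under 0.05 in each mutant, and DESeq2 called 1 in H4K16Q and 0 in H4H18A. The 4 alpha-specific genes summed to between 36.2 and 61.8 CPM in all libraries. In H4K16Q 2 of the 4 were above 0 and 2 below, and in H4H18A 3 were above and 1 below. MFALPHA2, with 2 and 0 counts in WT H4, stood at 6.74 and 5.66 CPM in H4K16Q and at 11.8 and 6.87 CPM in H4H18A. It stood at 3.91 CPM in WT H3 and 3.67 CPM in H3E50A. By edgeR it alone of the 4 had an unadjusted p under 0.05 in each mutant, and none passed after adjustment.

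The promoters of 101 terminal genes, 250 bases before to 50 after the first base of the start codon, were searched on both strands for 5 motifs and set beside 5916 promoters of the genome. The stress response element AGGGG, read by Msn2 and Msn4, was found in 19.8% against 21.9% of all promoters, the Abf1 motif in 7.92% against 14.5%, the Tbf1 motif TTAGGG in 2.97% against 6.90%, the Reb1 motif TTACCCG in 0% against 7.18% and the Rap1 motif in 0% against 0.659%. At positions 5 to 8 the shares were 21.4%, 6.84%, 8.55%, 2.56% and 2.56%. Many terminal promoters are near copies of each other and are not independent.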

How the data were processed

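The authors trimmed reads with Trim Galore, mapped them to R64 with RNA STAR and counted them with featureCounts; versions and the strand setting are not given in the sources used here, so overlapping and antisense genes may share reads. The deposited counts are raw whole numbers per gene for 8 libraries. The authors' deposited edgeR tables, which hold log2 fold changes and p-values of their own comparisons, were not used. Genes with at least 10 counts over the 8 libraries (6174) were scaled by TMM, and the 6 H4 libraries were fitted together with edgeR 4.0.16 (R 4.3.3; quasi-likelihood test, Benjamini-Hochberg adjustment, threshold 0.05). On simulated data this fit recovered most of the changed genes at a small spread but none at the spread of these libraries, so a gene that was not called may still differ. A value such as 2.60 ± 1.10 is a log2 fold change with its SE. For H3E50A the CPM ratio to WT H3 was taken on the log2 scale after adding a prior count of 2. Sequences and positions come from the RefSeq R64 assembly, whose build is that of the tables; windows had 100 bases, and protein identity was taken with BLAST 2.17.0+. Alternatives included DESeq2 1.42.0, other scalings, filters and sets of genes, and leaving out each library.

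The terminal genes and all lists were chosen with earlier results of these data known. Named genes are the 10 with the highest mean CPM; per mutant, the 5 largest rises and 5 largest falls among those with a mean of at least 20 CPM; those with a mean of at least 20 CPM whose mutant and WT H4 libraries do not overlap; any past a test's threshold; and SIR2, SIR3, SIR4 and the silent mating loci. Genes outside this rule that are named for their own values were chosen after these were seen.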

Additional observations from a re-analysis of the deposited data

How the results depend on the processing

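Low depth in H4H18A, the spread between libraries of a strain and shared sequence limit these results, and p-values measure the spread between the deposited replicates only. The number of terminal genes called was 1 by DESeq2's Wald test in H4K16Q and stayed at 0 under every other alternative except with 1 library left out, where it was 0 to 6 for H4K16Q and 0 to 3 for H4H18A. The labels tie the replicate numbers to no shared batch or day, and deviations of same-numbered libraries correlated at 0.0955 (WT H4 and H4K16Q), 0.395 (WT H4 and H4H18A) and −0.0068 (H4K16Q and H4H18A), so the numbers were not taken as pairs, although the genes that rise when glucose runs out were higher in replicate 1 in all 3 H4 strains. With a replicate block 0 terminal genes and 2 genes in all were called in H4K16Q, against 0 and 0 without it. With 1 library left out, the median of the terminal genes lay between −0.0205 and 1.04 for H4K16Q, between −0.68 and 0.49 for H4H18A and between 0.075 and 0.88 for the direct comparison of the mutants. The share of terminal genes that were lower lay between 27.5% and 52.0%, between 28.4% and 63.7%, and between 26.5% and 49.0%, in the same order. Scaling by total counts only gave H4H18A a median of −0.51 and 62.7% lower, and the outermost 8 genes of each arm a median of −0.38. Among genes with at least 50% unique windows, an alternative chosen after seeing the data, 24.4% were lower in H4K16Q, 22.0% were lower in H4K16Q than in H4H18A, and 46.3% were at least 2-fold apart in H3E50A against 56.9% in all. The share of genes under 10 counts was 13.7% over the outermost 8 genes of each arm, and 34.4% of the terminal genes had under 30 counts.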
